A study of Mus musculus with 12 samples.

Results

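The 10 genes Gldc, Sds, Agxt, Gnmt, Dmgdh, Sardh, Mat1a, Bhmt, Cbs and Cth encode enzymes that break down glycine, serine and methionine in liver. They were taken as a list of enzymes that was chosen with earlier results of these data known. Counts and medians set beside those of all genes therefore describe the list and do not test it. Each gene was represented by the probe set whose annotation named it alone, the brightest one over all arrays where several did so. Of the 10 genes, 9 had such a probe set, among 22180 genes represented in this way. No probe set named Sds (serine dehydratase) alone, so it was not analysed here. Levels are log2 expression values summarised per probe set by RMA, a procedure that removes background and brings all arrays to the same distribution.

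Liver RNA came from male C57Bl/6N mice aged 2 months that all carried floxed p53 alleles (Trp53tm1Brn), and 12 arrays formed 4 groups of 3. In the Adeno-Cre fasted and Adeno-Cre fed groups, an adenovirus expressing Cre recombinase, which deletes the floxed segment in the cells it infects, had been injected into the tail vein. The Adeno-GFP fasted and Adeno-GFP fed controls carried the same floxed alleles and received an equal titer of adenovirus expressing green fluorescent protein. From 3 days after injection, mice were either fasted for 24 h or fed standard chow freely. The design asks how acute loss of p53 alters the liver's response to food withdrawal. Nothing but infection restricted Cre to particular cells, and what the virus carried differed between injections besides the loss of p53. No probe set named Trp53 alone, so the loss of p53 could not be checked on its own transcript. The labels do not state whether each array is a separate mouse, so p-values here refer only to the spread among the arrays.

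Glycine is split in mitochondria by the glycine cleavage system, whose decarboxylase is Gldc, and is also formed from glyoxylate by the peroxisomal aminotransferase Agxt. Mat1a makes S-adenosylmethionine from methionine, and Gnmt uses that methyl donor to turn glycine into sarcosine, which disposes of excess methyl groups. Dmgdh and Sardh remove the methyl groups of dimethylglycine and sarcosine in mitochondria and return glycine. Bhmt regenerates methionine from homocysteine with betaine, while Cbs and Cth carry homocysteine on to cysteine. Fasting is known to raise amino acid breakdown in liver, which feeds carbon into glucose production.

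Across the list, fasting raised most transcripts and Adeno-Cre lowered most of them. Averaged over injections, 8 of 9 measured members rose with fasting and 0 fell in limma (adjusted p under 0.05 over all genes), where 4.02% of all genes tested rose and 4.32% fell. Averaged over diets, 6 of 9 fell with Adeno-Cre and 0 rose, where 2.03% of all genes fell and 3.55% rose. Gldc and Mat1a rose with fasting and had Adeno-Cre changes of -0.05 and -0.09 on the log2 scale, with 95% intervals of -0.25 to 0.15 and -0.21 to 0.02. The median change of the 9 members with fasting was 0.39, against 0.01 for all genes, and with Adeno-Cre it was -0.34, against -0.03 for all genes.

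The arrays were alike in general features: their medians lay between 6.26 and 6.33, and the correlation between arrays of a group, taken over all genes, was 0.991 to 0.994. The hepatocyte markers Alb, Ttr, Serpinc1 and Cps1 averaged 13.29, 13.47, 12.76 and 12.96, close to the highest values in the table (maximum 13.96). The other hepatocyte markers listed, Apoa1 and Hnf4a, averaged 12.05 and 9.90. In bulk liver RNA, fewer cells of a type and less RNA per cell cannot be told apart. The number of arrays limits the precision of all values.

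Promoter sequence is shown for 3 members around which the results turn: Agxt, which had the largest fall with Adeno-Cre of the 9, Gldc, which had the largest rise with fasting, and Dmgdh, whose gene starts next to that of another enzyme of the pathway. Sequences are from RefSeq (build GRCm38.p6), which had promoter entries for 7 of the 9 measured members (Agxt, Bhmt, Cbs, Dmgdh, Gldc, Gnmt and Sardh). The windows are 250 bases before the start of Agxt (chr1:93134990-93135239, plus strand) and of Gldc (chr19:30175442-30175691, minus strand), and the 133 bases between the starts of Bhmt2 on the minus strand and Dmgdh on the plus strand (chr13:93674303-93674435), written 5′ to 3′ in the direction of the named member. Capitals mark letters that match a searched motif, for which the full 250 bases before each start were read.
Agxt: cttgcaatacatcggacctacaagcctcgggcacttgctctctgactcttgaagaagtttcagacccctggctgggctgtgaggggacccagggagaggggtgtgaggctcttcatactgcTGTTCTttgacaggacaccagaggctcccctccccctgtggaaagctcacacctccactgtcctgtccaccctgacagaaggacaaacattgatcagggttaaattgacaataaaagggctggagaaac
Gldc: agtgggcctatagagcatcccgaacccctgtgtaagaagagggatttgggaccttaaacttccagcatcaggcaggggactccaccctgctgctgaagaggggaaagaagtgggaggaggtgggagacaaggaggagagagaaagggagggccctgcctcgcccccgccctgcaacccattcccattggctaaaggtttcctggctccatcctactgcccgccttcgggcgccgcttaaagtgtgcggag
Dmgdh: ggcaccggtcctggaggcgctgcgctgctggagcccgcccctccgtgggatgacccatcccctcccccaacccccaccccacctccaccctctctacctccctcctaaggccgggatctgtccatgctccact
The capitals in Agxt are TGTTCT, which is AGAACA read on the opposite strand, the 6-letter unit that a glucocorticoid receptor element holds as a pair, 124 to 129 bases before the start. AGAACA was present in 1 of the 7 member windows and in 16.1% of 32851 RefSeq promoter windows of the same length. The p53 consensus decamer, which a p53 response element likewise holds as a pair, the cAMP response element letters TGACG, the FOXO letters GTAAACA and the TATA box TATAAA were in 0 of 7, against 7.13%, 17.8%, 3.17% and 12.4% of all windows, with both strands searched and no overlap between matches in the members. A match or its lack describes the letters in these windows only.

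**Figure D1:**
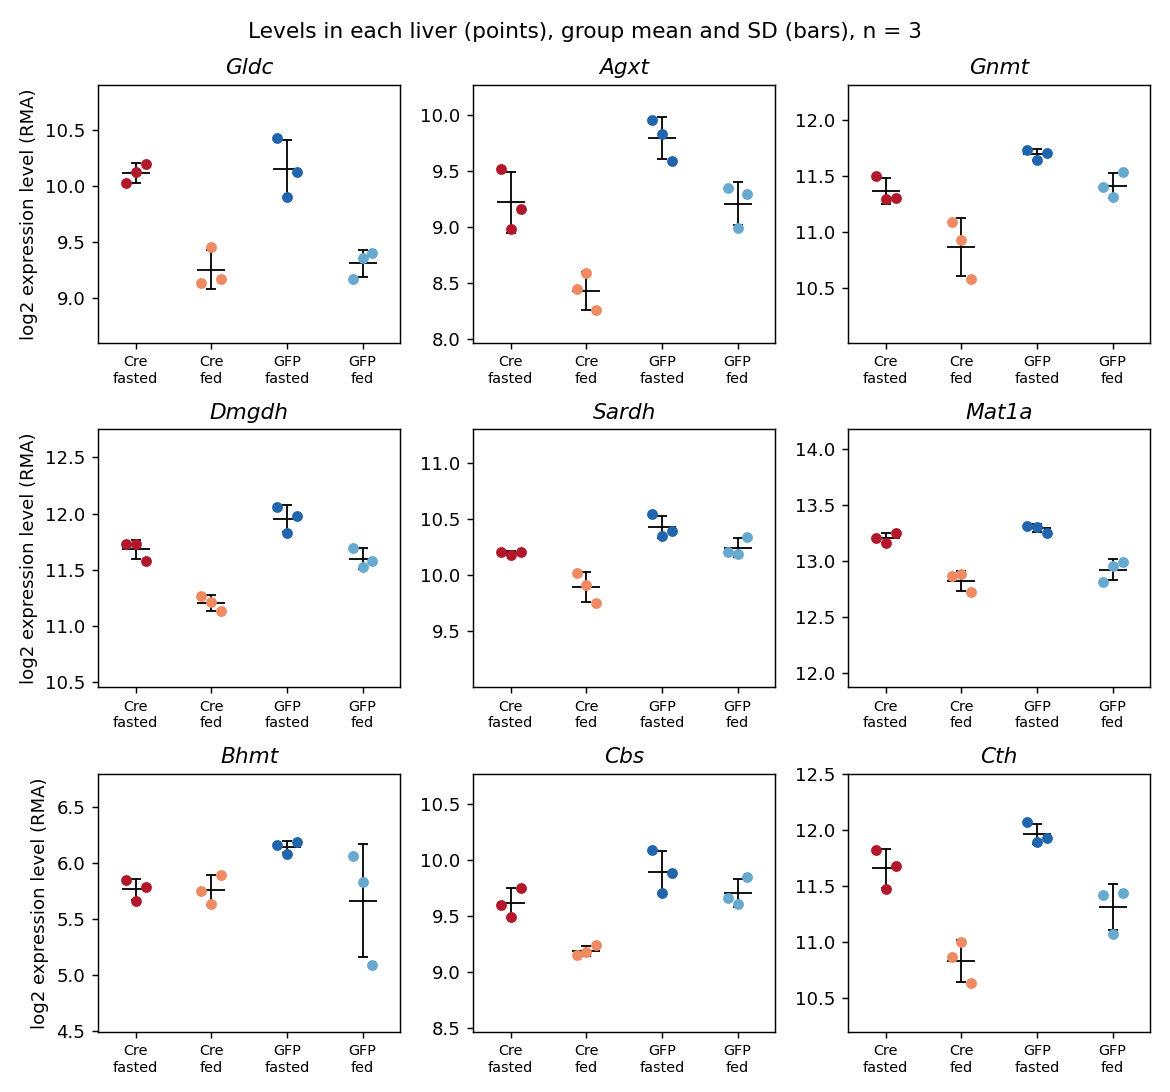
Log2 expression level (RMA) of the 9 measured members, one panel per gene, in the Adeno-Cre fasted, Adeno-Cre fed, Adeno-GFP fasted and Adeno-GFP fed groups. Points are the 3 arrays of a group and bars the mean and SD, and every panel spans the same number of log2 units. The Adeno-GFP fasted mean is the highest in all 9 panels and the Adeno-Cre fed mean the lowest in 8, the exception being Bhmt. The share of all genes with these positions was not computed.

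The order of the groups was much the same from gene to gene, as the panels of levels by group show. The Adeno-GFP fasted mean was the highest for 9 of 9 members and the Adeno-Cre fed mean the lowest for 8 of 9. Apart from Bhmt, the middle positions went to Adeno-Cre fasted and Adeno-GFP fed livers, in an order that differed between genes. The ranges of those 2 groups overlapped for Agxt, Gnmt, Dmgdh, Sardh and Cbs, and did not for Gldc, Mat1a and Cth, in which fasted livers were the higher whatever the injection. The shares of all genes with these group positions or overlaps were not computed. Averaged changes lay above 0 with fasting and below 0 with Adeno-Cre for 32% of all genes.

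On the glycine side, Gldc (probe set 17363865) differed between diets and overlapped between injections. It read 10.03, 10.13 and 10.20 in Adeno-Cre fasted livers and 9.14, 9.46 and 9.17 in Adeno-Cre fed livers. In Adeno-GFP livers it read 10.43, 9.90 and 10.13 when fasted and 9.17, 9.36 and 9.40 when fed. All 6 arrays of fasted livers lay above all 6 arrays of fed livers, and within each diet the Adeno-Cre and Adeno-GFP arrays overlapped. Gldc rose with fasting by 0.86 after Adeno-Cre (SE 0.13, limma adjusted p = 0.00589) and by 0.84 after Adeno-GFP (SE 0.13, adjusted p = 0.00524), and averaged over injections the rise was 1.80-fold (adjusted p = 0.000229).

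Agxt (probe set 17215885), which converts glyoxylate to glycine and is known for the oxalate overproduction that follows its loss, moved with both factors. It read 9.51, 8.98 and 9.16 in Adeno-Cre fasted livers and 8.44, 8.58 and 8.25 in Adeno-Cre fed livers. The Adeno-GFP livers read 9.95, 9.83 and 9.59 when fasted and 9.35, 8.98 and 9.29 when fed. In both diets all Adeno-Cre arrays lay under all Adeno-GFP arrays, and the Adeno-Cre fasted mean (9.22 ± 0.27, SD, n = 3) was close to that of Adeno-GFP fed livers (9.21 ± 0.19). In fed livers Agxt fell with Adeno-Cre by 0.78 (SE 0.15, 1.72-fold lower, adjusted p = 0.0273), and the change in fasted livers was -0.57 (SE 0.15, adjusted p = 0.0674). Averaged over diets it fell by 0.68 (SE 0.11, 1.60-fold lower, adjusted p = 0.00237). Fasting raised it by 0.79 after Adeno-Cre (SE 0.15, adjusted p = 0.0173), and after Adeno-GFP the change was 0.58 (SE 0.15, adjusted p = 0.0585).

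In the methyl-glycine route, Gnmt, Dmgdh and Sardh shared one order of groups apart from the middle positions. Gnmt (glycine N-methyltransferase, probe set 17345562) read 11.50, 11.30 and 11.31 in Adeno-Cre fasted livers and 11.09, 10.93 and 10.59 in Adeno-Cre fed livers, against 11.74, 11.65 and 11.71 in Adeno-GFP fasted livers and 11.40, 11.32 and 11.53 in Adeno-GFP fed livers. Adeno-Cre arrays lay under Adeno-GFP arrays of the same diet without overlap. With Adeno-Cre, Gnmt fell by 0.55 in fed livers (SE 0.12, 1.46-fold lower, adjusted p = 0.0428), and its change in fasted livers was -0.33 (SE 0.12, adjusted p = 0.182). It rose with fasting by 0.50 after Adeno-Cre (adjusted p = 0.0437), and after Adeno-GFP its change was 0.28 (adjusted p = 0.257).

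Dmgdh (dimethylglycine dehydrogenase, probe set 17289163) read 11.73, 11.73 and 11.58 in Adeno-Cre fasted livers and 11.27, 11.21 and 11.13 in Adeno-Cre fed livers. It read 12.06, 11.83 and 11.98 in Adeno-GFP fasted livers and 11.70, 11.52 and 11.58 in Adeno-GFP fed livers. Of its neighbours in the order of group means, only Adeno-Cre fasted and Adeno-GFP fed livers overlapped. It fell with Adeno-Cre in fed livers by 0.40 (SE 0.09, adjusted p = 0.0431), and its change in fasted livers was -0.28 (SE 0.09, adjusted p = 0.124). Fasting raised it by 0.48 after Adeno-Cre (adjusted p = 0.0138) and by 0.36 after Adeno-GFP (adjusted p = 0.0449).

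Sardh (sarcosine dehydrogenase, probe set 17383254) differed less between groups. It read 10.21, 10.18 and 10.21 in Adeno-Cre fasted livers and 10.02, 9.91 and 9.76 in Adeno-Cre fed livers, against 10.55, 10.35 and 10.40 in Adeno-GFP fasted livers and 10.21, 10.19 and 10.34 in Adeno-GFP fed livers. Adeno-Cre arrays lay under the Adeno-GFP arrays of their diet. In single groups no change passed the threshold: with Adeno-Cre it was -0.35 in fed livers (SE 0.09, adjusted p = 0.0745) and -0.23 in fasted livers (SE 0.09, adjusted p = 0.195). Averaged, Sardh fell by 0.29 with Adeno-Cre (adjusted p = 0.0149) and rose by 0.24 with fasting (adjusted p = 0.029). A second, dimmer probe set naming Sardh changed in the same directions, by -0.35 and 0.18.

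Among the enzymes that make and remake methionine's methyl donor, Mat1a (probe set 17298956) read 13.21, 13.16 and 13.25 in Adeno-Cre fasted livers and 12.86, 12.88 and 12.72 in Adeno-Cre fed livers. It read 13.32, 13.31 and 13.25 in Adeno-GFP fasted livers and 12.82, 12.96 and 12.99 in Adeno-GFP fed livers. The fasted and fed arrays did not overlap, and those of the 2 injections did within each diet. Mat1a rose with fasting by 0.38 after Adeno-Cre (SE 0.08, adjusted p = 0.0216) and by 0.37 after Adeno-GFP (SE 0.08, adjusted p = 0.0225). Whether signals so close to the top of the table are compressed was not tested.

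Bhmt (betaine-homocysteine methyltransferase, probe set 17295005) was the member without a call in any comparison. It read 5.85, 5.67 and 5.79 in Adeno-Cre fasted livers and 5.76, 5.64 and 5.90 in Adeno-Cre fed livers, against 6.16, 6.09 and 6.19 in Adeno-GFP fasted livers and 6.07, 5.84 and 5.10 in Adeno-GFP fed livers. Its probe set lay under the array's median on 12 of 12 arrays, and a level there is not shown to be above background. Bhmt is known as an abundant liver transcript, and whether this probe set measures it was not tested. Its averaged changes were -0.14 with Adeno-Cre (adjusted p = 0.605) and 0.24 with fasting (adjusted p = 0.328).

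Bhmt2 is a paralog that uses S-methylmethionine as methyl donor and was listed here among the other methionine cycle genes. It had a brighter probe set than Bhmt and moved with both factors, as Agxt and Dmgdh did. It read 9.87, 9.84 and 9.70 in Adeno-Cre fasted livers and 9.12, 9.30 and 9.07 in Adeno-Cre fed livers, against 10.19, 10.02 and 10.05 in Adeno-GFP fasted livers and 9.67, 9.66 and 9.73 in Adeno-GFP fed livers. Adeno-Cre arrays lay under the Adeno-GFP arrays of their diet, and only Adeno-Cre fasted and Adeno-GFP fed livers overlapped. Bhmt2 fell with Adeno-Cre in fed livers by 0.52 (SE 0.08, adjusted p = 0.0155) and averaged over diets by 0.40 (adjusted p = 0.00161), and it rose with fasting by 0.64 after Adeno-Cre (adjusted p = 0.00325) and by 0.40 after Adeno-GFP (adjusted p = 0.023). Its start lies head to head with that of Dmgdh, 133 bases away across the sequence shown above. Over 12 arrays the levels of Bhmt2 and Dmgdh correlated at r = 0.973, which made Bhmt2 the second most similar to Dmgdh of all genes outside the list, and their deviations from group means correlated at 0.590. The correlation of levels includes the group differences that both genes share. Deviations of Dmgdh correlated with those of the other measured members at -0.210 (Mat1a) to 0.537 (Sardh). Those of Agxt and Cth correlated at 0.893. Within 1000 bases, 1 of the 7 members with a promoter entry had such an opposite start. This was looked for after the likeness of Bhmt2 and Dmgdh was seen.

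In transsulfuration, Cbs (cystathionine beta-synthase, probe set 17343227) read 9.60, 9.49 and 9.75 in Adeno-Cre fasted livers and 9.15, 9.18 and 9.24 in Adeno-Cre fed livers. The Adeno-GFP livers read 10.09, 9.71 and 9.88 when fasted and 9.66, 9.60 and 9.85 when fed. The Adeno-Cre fed arrays lay under all others, and the other 3 groups overlapped. Cbs fell with Adeno-Cre in fed livers by 0.51 (SE 0.11, 1.43-fold lower, adjusted p = 0.0364), and its change in fasted livers was -0.28 (SE 0.11, adjusted p = 0.211). Its fasting changes were 0.43 after Adeno-Cre (adjusted p = 0.0585) and 0.19 after Adeno-GFP (adjusted p = 0.412), and averaged over injections it rose by 0.31 (adjusted p = 0.0266).

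Cth (cystathionine gamma-lyase, probe set 17411420), the next enzyme, showed 4 separate groups. It read 11.82, 11.48 and 11.68 in Adeno-Cre fasted livers and 10.87, 11.00 and 10.63 in Adeno-Cre fed livers, against 12.07, 11.90 and 11.93 in Adeno-GFP fasted livers and 11.42, 11.08 and 11.44 in Adeno-GFP fed livers. No array of a group reached into the next group. Cth rose with fasting by 0.82 after Adeno-Cre (SE 0.13, 1.77-fold, adjusted p = 0.00616) and by 0.65 after Adeno-GFP (SE 0.13, 1.57-fold, adjusted p = 0.018). With Adeno-Cre its change was -0.48 in fed livers (adjusted p = 0.0975) and -0.31 in fasted livers (adjusted p = 0.249), and averaged over diets it fell by 0.39 (SE 0.09, adjusted p = 0.0238).

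**Figure D2:**
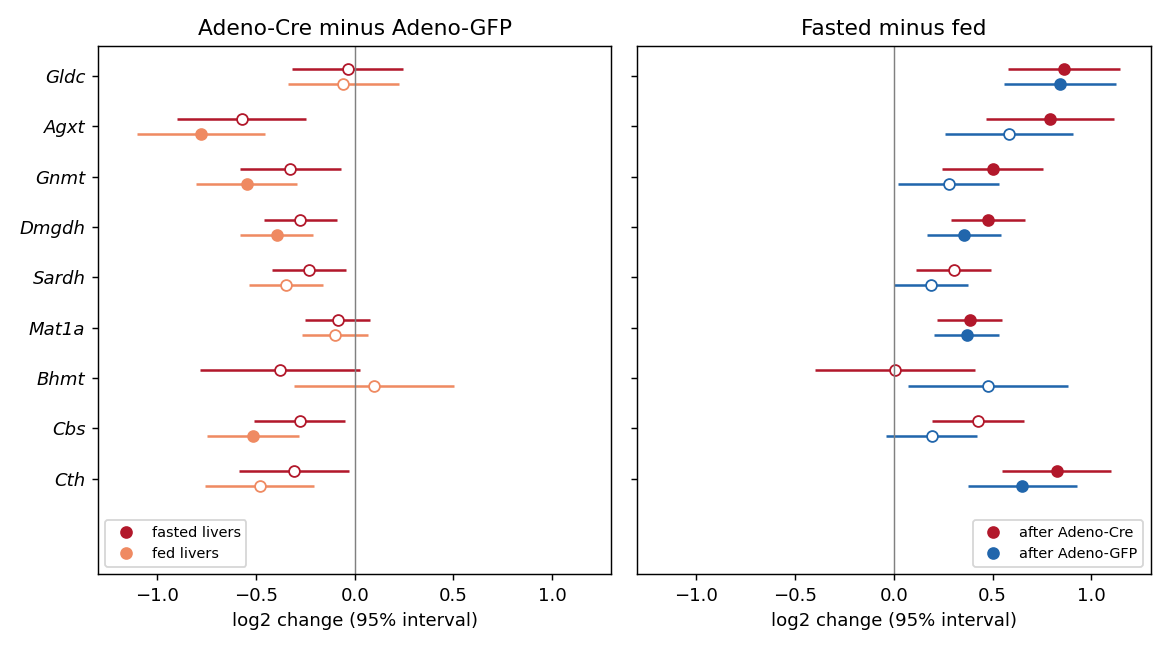
Log2 change of each measured member with its 95% interval: Adeno-Cre minus Adeno-GFP in fasted and fed livers (left) and fasted minus fed after Adeno-Cre and Adeno-GFP (right). Filled points passed an adjusted p of 0.05 in limma and open points did not. On the left 4 points are filled, all in fed livers, and on the right 6 are filled after Adeno-Cre and 4 after Adeno-GFP.

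The effect of Adeno-Cre in each diet is shown in the plot of changes with intervals. In fed livers, 4 of 9 members fell (Agxt, Gnmt, Dmgdh and Cbs) and 0 rose, where 0.415% of all genes fell and 1.08% rose. Groups did not overlap, Adeno-Cre being the lower, for 6 of 9 members (11.5% of all genes). In fasted livers, 0 of 9 passed the threshold in either direction, where 0.482% of all genes fell and 2.26% rose. There 9 of 9 changes were negative, with a median of -0.28, against -0.03 for all genes. An unadjusted p under 0.05 was reached by 6 members, of which Cth, the last, ranked 2881 by p among 22180 genes. The shares of all genes for these 2 counts were not computed. Groups did not overlap there for 6 of 9 members (10.9% of all genes). The fasted changes ran from -0.57 for Agxt to -0.04 for Gldc. With a trended and robust variance prior, Agxt and Dmgdh passed in fasted livers (adjusted p = 0.0393 and 0.031), and without Adeno-Cre fasted replicate 1, Agxt passed (adjusted p = 0.0253).

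The fed calls lay close to the threshold and depended on single arrays. Agxt was lost without Adeno-Cre fed replicate 1 or 3 or Adeno-GFP fed replicate 1 or 3 (adjusted p up to 0.119). Cbs held when the array left out was replicate 2 or 3 of Adeno-Cre fasted, 1 or 2 of Adeno-GFP fasted or 2 of Adeno-GFP fed livers. Dmgdh held when it was replicate 3 of Adeno-Cre fasted or replicate 1 or 2 of Adeno-GFP fasted livers, and Gnmt when it was replicate 1 of Adeno-Cre fasted or Adeno-Cre fed livers. Each was lost without any of the other arrays, with adjusted p up to 0.165, 0.168 and 0.175. Averaged over diets, Agxt, Gnmt, Dmgdh, Sardh and Cbs passed without each of the 12 arrays in turn, and their falls ranged from -0.75 to -0.26. Cth was lost when replicate 2 of Adeno-Cre fasted, 3 of Adeno-Cre fed, 1 of Adeno-GFP fasted or 1 or 3 of Adeno-GFP fed livers was left out (adjusted p up to 0.0649).

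**Figure D3:**
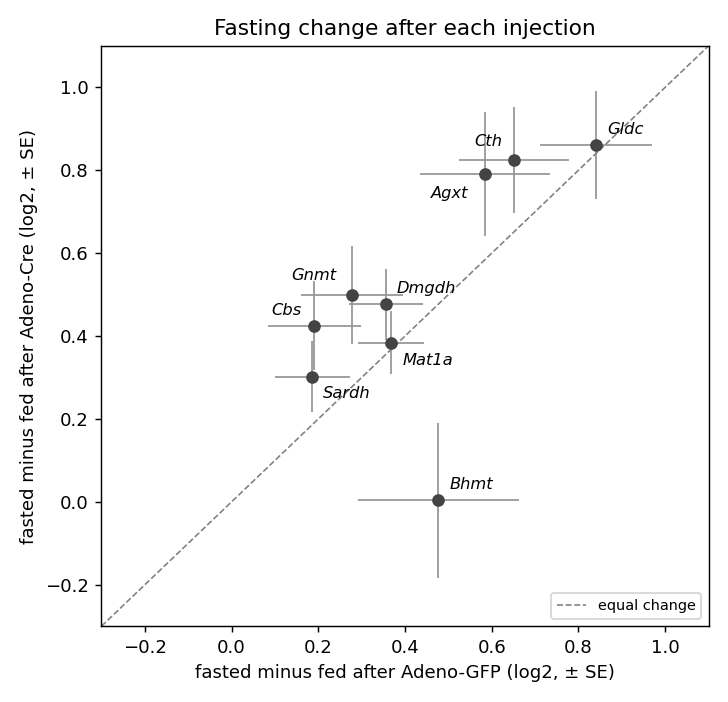
Fasting change (fasted minus fed, log2, with SE) of each measured member after Adeno-Cre (vertical axis) against that after Adeno-GFP (horizontal axis), with the line of equal change dashed. 8 of the 9 points lie above the line and that of Bhmt lies below it.

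The fasting response was then set side by side for the 2 injections, which share no arrays. After Adeno-Cre, 6 of 9 members rose (Gldc, Agxt, Gnmt, Dmgdh, Mat1a and Cth) and 0 fell, where 1.5% of all genes rose and 1.17% fell, and 8 of 9 were higher in fasted livers without overlap (11.3% of all genes). After Adeno-GFP, 4 of 9 rose (Gldc, Dmgdh, Mat1a and Cth) and 0 fell, where 1.2% of all genes rose and 1.87% fell, and 8 of 9 were again higher without overlap (11.1%). As the plot of one fasting change against the other shows, the change after Adeno-Cre was the larger for 8 of 9 members. The median difference was 0.12, against -0.0007 for all genes. The members share arrays and moved together across them, so these are not 8 separate observations. The difference between the responses was tested as an interaction in limma. At an adjusted p under 0.05, 0 of 9 members passed, against 0.00451% of all genes. At an unadjusted p under 0.05 it was also 0 of 9, for which the share of all genes was not computed. For Agxt the difference was 0.21 (95% interval -0.25 to 0.67), for Gnmt 0.22 (-0.14 to 0.58), for Cbs 0.23 (-0.09 to 0.56), for Gldc 0.02 (-0.38 to 0.42) and for Bhmt -0.47 (-1.05 to 0.10). With 3 arrays a group these intervals leave room for differences as large as several of the fasting changes themselves.

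Of the fasting calls, Gldc passed without any array in turn after either injection, and Cth did so after Adeno-Cre. After Adeno-Cre, Agxt was lost when fasted replicate 1 or fed replicate 1 or 3 of that injection was left out (adjusted p up to 0.0688). Dmgdh was lost with its fasted replicate 1 or 2 or fed replicate 3 left out (0.0609), Mat1a with its fasted replicate 1 or 2 or fed replicate 1 or 3 left out (0.0845), and Gnmt with any array but Adeno-Cre fed replicate 1 left out (0.165). After Adeno-GFP, Cth was lost when fasted replicate 1 or 3 or fed replicate 2 of that injection was left out (0.0751), Mat1a with any of its fasted replicates or fed replicate 1 or 2 left out (0.0891), and Dmgdh with any array but Adeno-Cre fasted replicate 3 and Adeno-GFP fasted replicate 2 left out (0.166). Agxt passed there when replicate 1 of Adeno-Cre fasted livers was left out (0.0384). Averaged over injections, Gldc, Agxt, Gnmt, Dmgdh, Mat1a and Cth passed without each array in turn. Sardh was lost when replicate 1 or 2 of Adeno-Cre fasted, 2 or 3 of Adeno-Cre fed, 1 of Adeno-GFP fasted or 1 or 2 of Adeno-GFP fed livers was left out (adjusted p up to 0.0722). For Cbs these were replicate 1 or 3 of Adeno-Cre fasted, 1 or 2 of Adeno-Cre fed, 1 or 3 of Adeno-GFP fasted and 1 or 2 of Adeno-GFP fed livers (0.0687).

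The other enzymes of glycine, serine, methyl group, folate and cysteine metabolism were read as 58 measured genes of 65 listed by function. Averaged over injections, 10 of 58 rose and 7 fell with fasting (17.2% and 12.1%, against 4.02% and 4.32% of all genes). Ahcy, which clears the S-adenosylhomocysteine that Gnmt and other methyltransferases produce, rose by 0.80 (adjusted p = 0.000418). Nnmt, which methylates nicotinamide, rose by 0.85 (adjusted p = 0.00305), Got1 (cytosolic aspartate aminotransferase) by 0.76 (adjusted p = 0.00356) and Suox, the oxidase that detoxifies sulfite, by 0.57 (adjusted p = 0.000589). Among those that fell were Hao1, the peroxisomal oxidase that forms the glyoxylate used by Agxt, by 0.72 (adjusted p = 0.00115), and Gamt and Gatm, the enzymes of creatine synthesis, by 0.62 and 0.49 (adjusted p = 0.000653 and 0.0116). Csad, which leads cysteine to taurine, fell by 0.61 (adjusted p = 0.00173). The list thus moved in both directions with fasting, and its median change was 0.02.

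With Adeno-Cre, averaged over diets, 6 of the 58 rose and 8 fell (10.3% and 13.8%, against 3.55% and 2.03% of all genes). The 8 that fell were Aldh1l1, Bhmt2, Gamt, Hoga1, Pemt, Shmt2, Suox and Tst, by 0.24 to 0.47. Suox fell by 0.47 (adjusted p = 0.00214) and Pemt, which makes phosphatidylcholine by methylation, by 0.34 (adjusted p = 0.00667). The 6 that rose included Psat1 (0.46, adjusted p = 0.00272) and Psph (0.26, adjusted p = 0.0336), which belong to serine synthesis, and Mthfd1l (0.61, adjusted p = 0.00529) and Mthfd2 (0.34, adjusted p = 0.0433), which belong to mitochondrial folate metabolism. Gclc, of glutathione synthesis, and Mtap, of methylthioadenosine salvage, rose by 0.34 and 0.23. Of 4 measured genes of serine synthesis and other serine enzymes, 2 rose and 0 fell. In fed livers 1 of 58 rose (Psat1) and 4 fell (Bhmt2, Gamt, Suox and Tst), and in fasted livers 1 rose (Mthfd1l) and 1 fell (Suox). Of all genes, 1.08% rose and 0.415% fell in fed livers, and 2.26% rose and 0.482% fell in fasted livers.

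**Figure D4:**
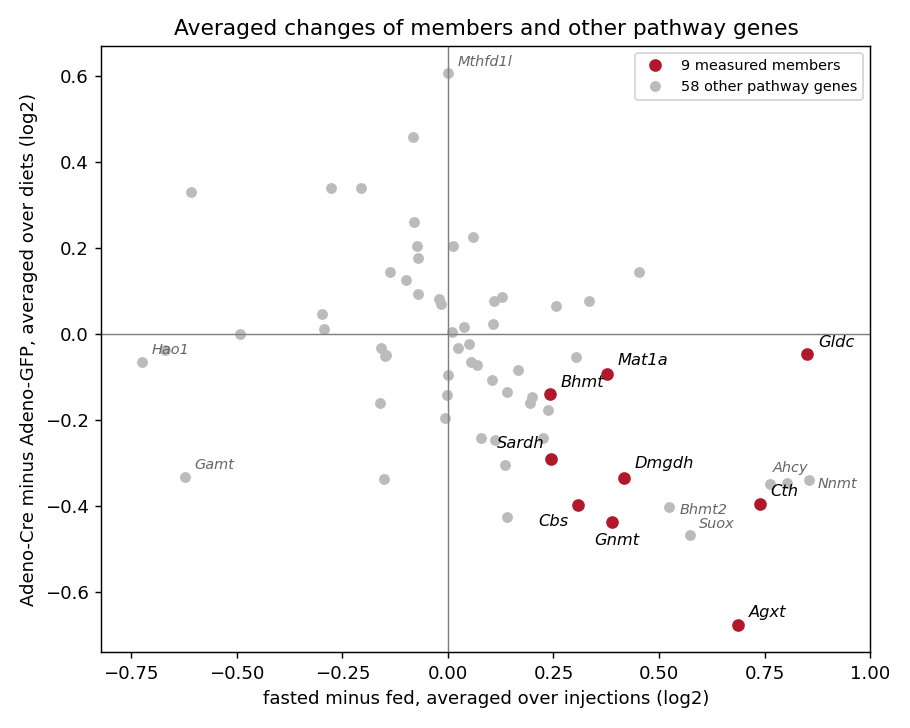
Change with Adeno-Cre averaged over diets (vertical axis, log2) against change with fasting averaged over injections (horizontal axis, log2) for the 9 measured members (red) and 58 other pathway genes (grey). The members lie to the right of 0 and below 0, as do 21 of the 58 other genes, which spread to all sides, with Mthfd1l at the top and Hao1 at the left.

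The map of averaged changes shows the 9 members to the right of 0 and below 0, where 21 of the 58 other genes (among them Bhmt2, Suox, Ahcy and Nnmt) and 32% of all genes lie as well. The other 58 genes had median changes of -0.04 with Adeno-Cre and 0.02 with fasting. Both axes use all 12 arrays, so the positions are given as values side by side.

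Other features of the livers moved with Adeno-Cre. In fed livers, 11 of 13 measured interferon response genes rose and 0 fell (median change 1.47), and the log2 of their summed level was 13.24 to 14.00 in Adeno-Cre fed livers, against 11.78 to 12.23 in Adeno-GFP fed livers. In fasted livers 1 of 13 rose, with summed levels of 12.17 to 12.59 after Adeno-Cre and 11.63 to 12.26 after Adeno-GFP. Cell division genes rose in both diets, 8 of 11 in fed and 11 of 11 in fasted livers. The part of these changes in the lower levels of the members was not tested. Of 6 hepatocyte markers, 0 passed with Adeno-Cre in either diet, and their summed level was 15.28 to 15.35 in Adeno-Cre fed livers, against 15.34 to 15.36 in Adeno-GFP fed livers, and 15.32 to 15.33 in Adeno-Cre fasted livers, against 15.36 to 15.39 in Adeno-GFP fasted livers. The Adeno-Cre fasted sums all lay below the Adeno-GFP fasted sums, and the fed ranges overlapped.

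Markers of other cell types were examined in the same way. Of 7 Kupffer cell, 10 other leukocyte, 7 endothelial and 5 cholangiocyte markers, 0 passed with Adeno-Cre in fed or in fasted livers, and of 8 stellate cell markers 1 fell, in fed livers. The summed leukocyte level was 10.38 to 10.64 in Adeno-Cre fed livers, against 10.20 to 10.35 in Adeno-GFP fed livers. Kidney and pancreas markers read 7.96 to 8.26 in sum on all arrays. Averaged over diets, 1 leukocyte marker rose, and 2 stellate cell markers and 1 cholangiocyte marker fell. Some other hepatocyte genes fell alongside the members. Averaged over diets, 8 of 11 pericentral genes fell and 0 rose, and 4 of 9 periportal genes fell and 1 rose. Of 12 genes of secreted hepatocyte proteins, 1 fell and 0 rose, with a median change of -0.06. Among all genes, 2.03% fell and 3.55% rose. In each single diet, 3 of 11 pericentral genes and 1 of 9 periportal genes were lower and 0 higher. There 0 of the 12 secreted protein genes passed. The summed periportal level was 14.63 to 14.82 in Adeno-Cre fed livers, against 14.90 to 14.96 in Adeno-GFP fed livers, and the summed pericentral level was 14.70 to 14.81, against 14.97 to 15.02. With fasting, 8 of 13 interferon response genes fell after Adeno-Cre and 0 of 13 after Adeno-GFP, while 0 of 11 cell division genes fell after Adeno-Cre and 6 of 11 after Adeno-GFP. Of the 8 stellate cell markers, 3 fell with fasting after Adeno-Cre and 2 after Adeno-GFP, and 1 leukocyte marker fell after Adeno-Cre. Of the 6 hepatocyte markers, 0 passed with fasting after Adeno-Cre and 1 rose after Adeno-GFP. Averaged over injections, 2 hepatocyte markers rose with fasting (Hnf4a by 0.42 and Cps1 by 0.17), and 3 stellate cell and 2 leukocyte markers fell. The part of these genes in the changes of the members was not tested. Of 11 genes of the fasting response, 4 rose and 1 fell with fasting after Adeno-Cre, and 4 rose and 2 fell after Adeno-GFP.

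The levels of the members other than Bhmt also correlated over the arrays, more weakly and unevenly once group means were removed. With Bhmt included, the 36 pairs had a median Pearson r of 0.829, and of 0.320 after group means were removed (-0.636 to 0.893). Over 12 arrays the 28 pairs among the 8 members other than Bhmt had a median Pearson r of 0.884 (0.622 to 0.975), which includes the group differences. After group means were removed, the median was 0.465 (-0.210 to 0.893). Adeno-GFP fasted replicate 1 had the highest level of its group for 8 of these 8 members and Adeno-GFP fed replicate 3 for 6. Adeno-Cre fasted replicate 2, Adeno-Cre fed replicate 3, Adeno-GFP fasted replicate 2 and Adeno-GFP fed replicate 2 had the lowest of their groups for 6 each. The members share arrays and normalisation, so these correlations are a description.

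Among genes outside the list of members, those most like each called member were sought by Pearson r over the 12 arrays. Of the members themselves, Gnmt and Sardh correlated with each other at 0.975. Agxt was most like Amdhd1 (r = 0.984), Hgd (0.981) and Hal (0.981), of which Hal and Amdhd1 act in histidine breakdown and Hgd in tyrosine breakdown. Cth was most like Pxmp2 (0.983), a peroxisomal membrane protein, Oat (0.979), ornithine aminotransferase, and Hgd (0.979). Mat1a was most like Cps1 (0.981), which starts the urea cycle, then Tns1 and Ogdh. Gnmt was most like Hal (0.977), Marchf6 and Mmut, the methylmalonyl-CoA mutase. Dmgdh was most like Suox (0.976), Bhmt2 and Ftcd, another histidine enzyme. Sardh was most like Yif1a (0.969), Mmut and Uroc1, Gldc was most like Acox2 (0.961), a peroxisomal oxidase of bile acid precursors, Stk25 and Tns1, and Cbs was most like Spns2 (0.944), Slc22a18 and Dcxr.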

How the data were processed

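Mouse liver RNA (200 ng, RNA integrity number above 7, per the labels' protocols) was hybridised to 12 Affymetrix arrays. The authors deposited log2 values, 1 per probe set and array, computed with RMA per the submitters' processing notes. Neither their software version nor a genome build is given in the sources used here. RMA equalises array distributions, so a shift of all genes would be removed, and it compresses changes of dim probe sets. No detection call was made.

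Of 41345 probe sets, 23521 carry the name of a single gene in the platform annotation, and keeping the brightest for each gene gave 22180 genes. One limma model (version 3.58.1 in R 4.3.3, lmFit and eBayes) with a mean for each group took in all 12 arrays. It was tested two-sided for 7 contrasts, with Benjamini-Hochberg adjustment over all genes within each and a threshold of 0.05. The fit was tested on simulated data. Every member is named, other genes where they passed the threshold, and for each called member the 3 genes outside the list of highest Pearson correlation. Members and lists were chosen with earlier results of these data known. Alternatives changed the normalization, the filter on dim probe sets, the replicate block, the groups fitted, the variance prior and the handling of probe sets, and left out each array. Promoter windows were read from RefSeq with Python 3.11.15 and pandas 2.3.3; figures used matplotlib 3.10.9. No coordinates of probe sets are given.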

Additional observations from a re-analysis of the deposited data

How the results depend on the processing

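Averaged over both factors, 6 members fell with Adeno-Cre and 8 rose with fasting, counts that stayed within 5 to 6 and 6 to 8 when each array was left out. Counts within 1 diet or injection depended more on the settings. The 4 members lower with Adeno-Cre in fed livers numbered 2 after quantile normalisation, 1 with only the groups compared in the fit, 0 with all probe sets tested and 0 to 3 without each array. The 0 lower in fasted livers became 1 with dim probe sets left out, 2 with a trended and robust prior and 0 to 1 without each array. Of the rises with fasting, the 6 after Adeno-Cre numbered 2 with only the groups compared, 3 with all probe sets and 2 to 6 without each array, and the 4 after Adeno-GFP numbered 2, 1 and 1 to 4. Only the groups compared could not be used for averaged changes or the interaction. Of 407 member results under alternatives that kept all arrays, 364 kept direction and side of the threshold, 28 lost and 14 gained a call and 1 turned its sign (the Mat1a interaction, -0.022 after quantile normalisation). Without 1 array, 19 of 756 turned sign, all of changes without a call: for Gldc with Adeno-Cre (-0.16 to 0.10 fasted, -0.16 to 0.00165 fed, -0.11 to 0.022 averaged) and the interaction (-0.10 to 0.16), for Bhmt with fasting after Adeno-Cre (-0.060 to 0.072) and with Adeno-Cre in fed livers (-0.19 to 0.30), and for the Mat1a interaction (-0.035 to 0.068). The calls over all genes, on which the background shares rest, moved too: the 331 for Adeno-Cre in fed livers were 91 with all probe sets, 552 with dim ones left out and 31 to 362 without 1 array (31 without Adeno-GFP fed replicate 3). Without 1 array, the 609 for Adeno-Cre in fasted livers ran from 355 (without Adeno-Cre fasted replicate 2) to 800, and the fasting calls from 207 (without Adeno-Cre fasted replicate 1) to 713 after Adeno-Cre, against 592 with all arrays, and from 275 (without Adeno-GFP fed replicate 2) to 720 after Adeno-GFP, against 682. The cause was not tested.

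Replicate numbers did not pair the arrays: deviations of same-numbered arrays correlated at -0.0905 to 0.147 over 18 pairs, 3 above 0.1. With the replicate block, member counts stayed within 1.5 times of those without it; Gnmt lost its calls in fed livers (adjusted p = 0.0552) and with fasting after Adeno-Cre (0.0505), Cbs gained one with fasting after Adeno-Cre (0.0455), and Agxt one after Adeno-GFP (0.0471). Signal over background was not given, so the limit it sets on dim probe sets such as that of Bhmt is unknown.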
